A study of Mus musculus with 6 samples.

Results

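Immediate early genes are the first genes that a stimulus switches on in a cell, and 10 of them were followed here in the arcuate nucleus of the hypothalamus after dexamethasone (Dex), alone or with the compound Zj7. The 10 are *Fos*, *Fosb*, *Fosl2*, *Jun*, *Junb*, *Egr1*, *Egr2*, *Nr4a1*, *Arc* and *Npas4*. They were taken by gene symbol from a table of 21461 genes, with earlier results of these data known. The authors kept only genes with counts in every library, so this held for all 10 in advance. No further threshold on their values was used.

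As background, immediate early genes need no newly made protein to be transcribed. Synaptic input and growth signals reach them within minutes through calcium, cAMP and MAP kinases, which act on CREB at cAMP response elements and on serum response factor at CArG boxes, and the RNA is short-lived. FOS proteins pair with JUN proteins to form the transcription factor AP-1, EGR proteins are zinc finger factors, and NR4A1 is an orphan nuclear receptor. NPAS4 is a factor of neurons that responds to calcium, and Arc is not a transcription factor but a protein of the synapse that takes part in the removal of AMPA receptors. In the hypothalamus the level of *Fos* is widely used as a sign of recently active neurons. The glucocorticoid receptor (GR), to which Dex binds, can activate genes directly and can also repress AP-1. The gene *Arc* is not to be confused with the arcuate nucleus, which is written out here.

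The tissue was the dissected arcuate nucleus of male mice of the strain C57BL/6, 10 weeks of age. It was taken 24 h after an intraperitoneal injection of Dex at 10 mg/kg with Zj7 at 50 mg/kg, of Dex at 10 mg/kg, or of vehicle, with 2 libraries in each of the 3 groups. The series describes Zj7 as a selective modulator of GR, and there was no group with Zj7 alone, so what Zj7 does without Dex was not measured. The sample labels give a single dose of 10 mg/kg for the combination, and the dose of Zj7 above is that of the series' design text. The labels call only the vehicle mice fed, and a part of feeding state in the differences from vehicle was not tested. Nothing says that both libraries of a group are from different animals, so every p-value reflects the spread between libraries alone, which may be technical.

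Libraries held 50704789 to 61122938 counts. Levels are given as CPM, which are counts scaled to a common library size, here after TMM normalization. Of 8 markers of neurons in general, 0 were called in any of the 3 comparisons, and their summed level was 5221 to 5348 CPM with Dex+Zj7, 5268 to 5341 CPM with Dex and 5070 to 5142 CPM with vehicle. All 8 listed genes of AgRP and POMC neurons of the arcuate nucleus were in the table of genes with counts in every library. Genes known to answer GR were higher than vehicle in both treated groups (6 of 8 listed genes called in each), with *Fkbp5* at 110 ± 22.1 CPM with Dex+Zj7, 125 ± 3.11 CPM with Dex and 33.7 ± 3.27 CPM with vehicle (SD, n = 2 each). Markers of several non-neuronal cells were lower than vehicle in both treated groups. The summed level of 9 microglial markers was 141 to 150 CPM with Dex+Zj7, 155 CPM in each Dex library and 252 to 255 CPM with vehicle. That of 8 endothelial markers was 103 to 137 CPM with Dex+Zj7, 70.5 to 76.3 CPM with Dex and 150 to 160 CPM with vehicle. Jun, Fos and Egr proteins are made in many cell types, so the part of these cells in the results below was not tested. In such bulk tissue, fewer cells of a type and less RNA per cell cannot be told apart.

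The stretches just upstream of the members' starts are shown first. The members are usually described as driven through short elements, and only those close to a start can be seen in this way. The RefSeq promoter table (GRCm38.p6, from 250 bases before to 50 bases after a start) held 8 of the 10 members, and *Arc* and *Egr1* had no entry. The core of the cAMP response element, TGACG on either strand, was present in *Fos*, *Fosb*, *Junb*, *Egr2*, *Nr4a1* and *Npas4*, 6 of the 8 counting any start of a gene, and in 23% of the 27025 genes of the table counted likewise. The EGR motif GCGNGGGCG was present in *Fosb*, *Fosl2* and *Nr4a1*, against 6.27% of all genes. A CArG box was present in *Egr2*, which has several starts in the table, against 1.81%. Elements more than 250 bases before a start were not searched, so a member without a match here may hold the element further away. The full element TGACGTCA (2.03% of all genes), the AP-1 motif TGAGTCA (5.95%), the NR4A motif AAAGGTCA (1.7%) and a half-site pair of GR, ACANNNTGT (7.9%), were in 0 of the 8. The full element contains the core, and both strands were searched for each motif. *Jun* held no match to any of the 7 motifs in this window. The stretches that hold the matches are given 5′ to 3′ on the strand of the gene, with the matches in capitals.
Fos, chr12:85473756-85473833, + strand: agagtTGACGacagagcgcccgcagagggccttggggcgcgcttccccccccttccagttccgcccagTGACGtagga
Fosb, chr7:19310082-19310110, − strand: gcgggTGACGcaagcGCGGGGGCGggtcc
Fosl2, chr5:32136388-32136406, + strand: tgcgcGCGGGGGCGgaagg
Junb, chr8:84978845-84978859, − strand: gacagTGACGcgagc
Egr2, chr10:67537753-67537823, + strand: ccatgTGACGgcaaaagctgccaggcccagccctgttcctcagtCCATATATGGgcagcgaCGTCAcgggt
Nr4a1, chr15:101266608-101266815, + strand: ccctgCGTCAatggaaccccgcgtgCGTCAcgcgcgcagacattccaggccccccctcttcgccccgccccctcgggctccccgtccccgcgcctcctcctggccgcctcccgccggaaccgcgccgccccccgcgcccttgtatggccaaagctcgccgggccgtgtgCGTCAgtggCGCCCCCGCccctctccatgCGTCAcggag
Npas4, chr19:4990131-4990155, − strand: ttcgaCGTCAcgggaTGACGtcgga
In *Egr2* the capitals mark 2 cores with the CArG box between them, and in *Nr4a1* they mark 4 cores and an EGR motif on the opposite strand. A match is a description of the letters and not evidence of binding.

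Levels of different members can be compared only per length, for which the deposited FPKM values (fragment counts scaled by transcript length and depth) were used. In vehicle tissue *Jun* was highest at 14.2 ± 1.04 FPKM, followed by *Egr1* at 12.5 ± 1.57 FPKM (SD, n = 2), and their libraries overlapped. *Fos* (7.57 ± 0.589 FPKM), *Junb* (7.41 ± 0.821 FPKM) and *Nr4a1* (7.35 ± 0.143 FPKM) came next and did not differ beyond their spread. *Arc* had 4.90 ± 0.370 FPKM, and *Npas4* (2.27 ± 0.172 FPKM) and *Fosl2* (2.26 ± 0.00120 FPKM) overlapped. The place of *Npas4* is uncertain, since its FPKM implies a length of 13.6 to 16.6 kb, against 3.62 kb for its longest coding transcript in GENCODE, and over the shorter length its level would be higher. *Fosb* at 0.667 ± 0.0704 FPKM and *Egr2* at 0.181 ± 0.0477 FPKM were lowest. With Dex+Zj7 the order began with *Jun* at 9.65 ± 0.148 FPKM, *Egr1* at 6.97 ± 1.47 FPKM and *Junb* at 4.86 ± 0.665 FPKM. With Dex it began with *Egr1* at 12.8 ± 2.37 FPKM, *Jun* at 10.0 ± 0.621 FPKM and *Junb* at 7.09 ± 0.183 FPKM.

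**Figure D1:**
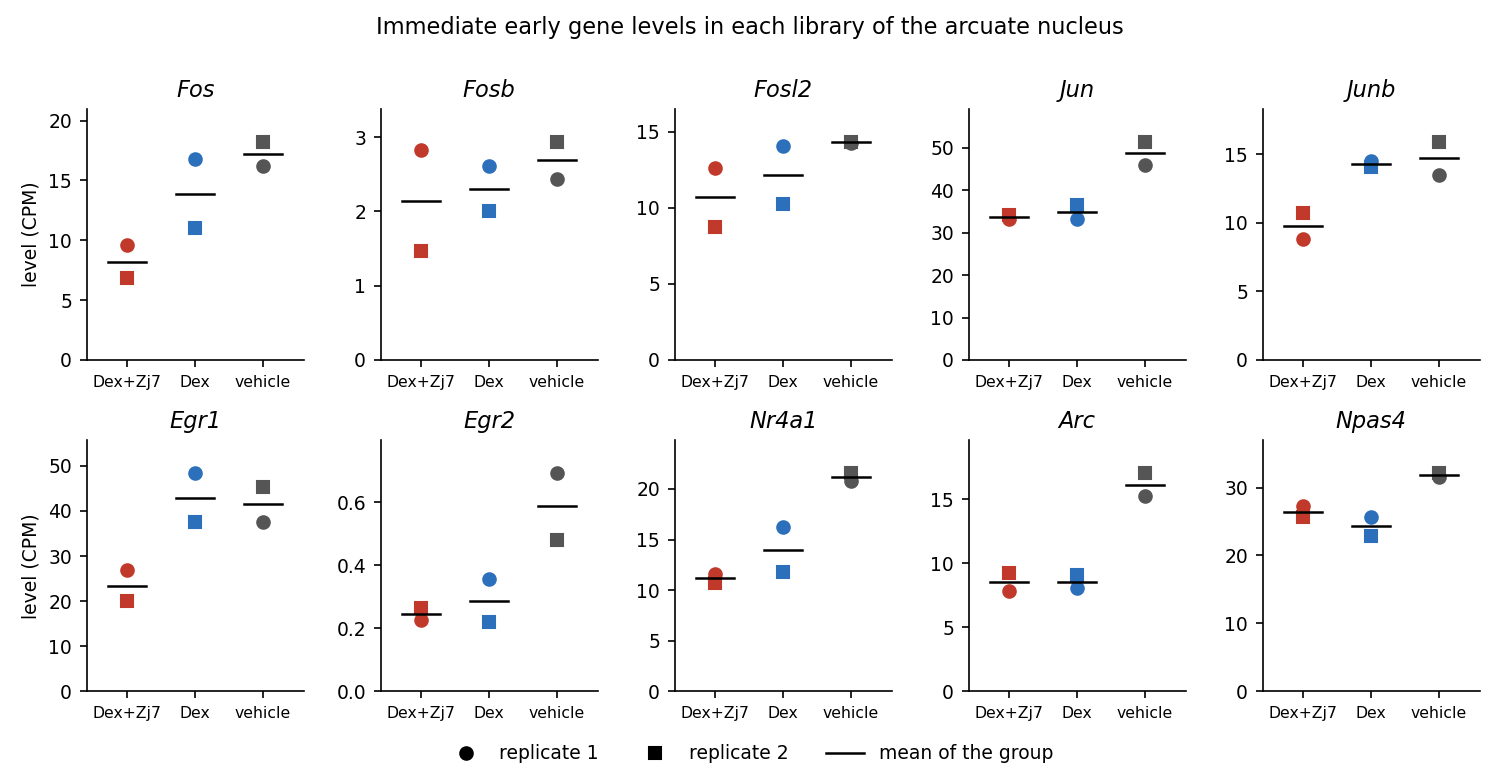
Level of each of the 10 immediate early genes in CPM (vertical axis, from 0) in the libraries of Dex+Zj7, Dex and vehicle; circles are replicate 1, squares replicate 2 and lines the mean of the group (n = 2). *Arc* and *Jun* stand low in both treated groups, while the Dex+Zj7 libraries of *Junb* and *Egr1* lie below the others, a difference from Dex that did not pass the adjusted test (adjusted p = 0.551 and 0.403 by edgeR).

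The members differed in which comparisons with vehicle they passed, and no member passed the test between Dex+Zj7 and Dex, so these differences between the treated groups are not shown. *Arc*, *Jun* and *Nr4a1* were lower than vehicle with Dex+Zj7 and with Dex. *Fos*, *Egr1* and *Junb* were lower than vehicle with Dex+Zj7, and with Dex they did not pass the test. *Npas4* passed the test with Dex and missed it with Dex+Zj7 (adjusted p = 0.0792 by edgeR), a call that other settings made, and *Fosb*, *Fosl2* and *Egr2* passed it in no comparison.

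Against vehicle, 6 of the 10 members were lower with Dex+Zj7 and 4 of the 10 were lower with Dex, by edgeR's quasi-likelihood test with Benjamini-Hochberg adjustment over all 21461 genes at an adjusted p under 0.05. None was higher in either comparison. Over all genes, 3.97% were called lower and 3.40% higher with Dex+Zj7 against vehicle, and 6.45% were called lower and 5.03% higher with Dex against vehicle. When scaled by total counts in place of TMM, the members called lower still numbered 6 and 4, while the calls over all genes became 1033 lower and 584 higher with Dex+Zj7, against 853 and 730 with TMM. The median log2 fold change of the members was −0.70 with Dex+Zj7 (range −1.26 to −0.27) and −0.35 with Dex (range −1.04 to 0.05), while the median of all genes was −0.0014 and 0.0029 in the same comparisons. At an unadjusted p under 0.05, 8 of the 10 members were lower with Dex+Zj7 (13.0% of all genes) and 5 with Dex (14.7%). The log2 fold change was below 0 for 10 of 10 members with Dex+Zj7 (50.2% of all genes) and for 9 of 10 with Dex (49.5%). Both Dex+Zj7 libraries lay below both vehicle libraries for 9 of the 10 members, against 28.7% of all genes, and both Dex libraries lay below both vehicle libraries for 6 of the 10, against 28.5% of all genes. The same 2 vehicle libraries serve in both, and the comparisons are therefore not independent. The exact test of edgeR called 8 members lower with Dex+Zj7, adding *Egr2* and *Npas4*, and 4 with Dex. Over all genes it called 1642 lower with Dex+Zj7 and 2066 with Dex, against 853 and 1384 in the main fit. Leaving out a library changed the calls over all genes as well as those of the members. With 1 library left out at a time, the count of members called lower was 1 to 7 with Dex+Zj7 and 1 to 4 with Dex. With Dex+Zj7 it was 1 without Dex+Zj7 replicate 2, 2 without Vehicle replicate 2 and 3 without Dex+Zj7 replicate 1, and with Dex it was 1 without Vehicle replicate 2 and 2 without Dex replicate 2 or Vehicle replicate 1.

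Dex+Zj7 was also set directly against Dex, which asks what Zj7 adds. None of the 10 members passed the adjusted test (0 of 10 lower and 0 of 10 higher). Over all genes, 0% were called lower and 0.00466% higher, which is the 1 gene *Ptger1*, a prostaglandin receptor that was no member and is named after its values were seen (1.31 ± 0.00496 CPM with Dex+Zj7 and 0.0759 ± 0.00434 CPM with Dex, SD, n = 2). At an unadjusted p under 0.05, 3 of the 10 members were lower (*Egr1*, *Junb* and *Fos*), against 2.12% of all genes. DESeq2 called 1 member lower (*Junb*) and edgeR's exact test 2 (*Junb* and *Egr1*), while limma-voom called 0. Over all genes DESeq2 called 18 lower and 48 higher, the exact test 34 and 63, and limma-voom 0 and 1. Both Dex+Zj7 libraries lay below both Dex libraries for *Fos*, *Junb*, *Egr1* and *Nr4a1*, 4 of the 10 members, against 14.9% of all genes. The log2 fold change was below 0 for 9 of the 10 members, against 49.2% of all genes. Its median over the members was −0.20, against 0.0021 over all genes.

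**Figure D2:**
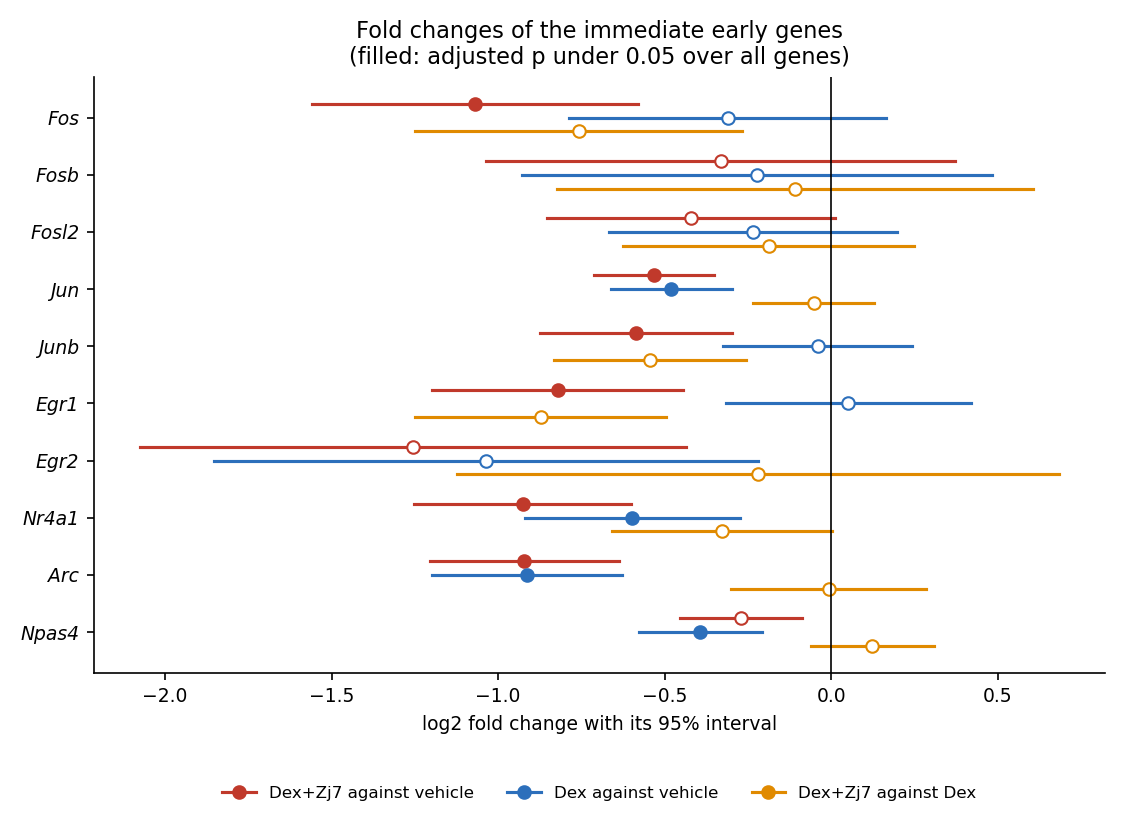
Log2 fold change of each immediate early gene (horizontal axis) with its 95% interval, for Dex+Zj7 against vehicle, Dex against vehicle and Dex+Zj7 against Dex; filled points have an adjusted p under 0.05 over all 21461 genes. For *Arc* and *Jun* the intervals of Dex+Zj7 against vehicle and of Dex against vehicle lie over each other and that of Dex+Zj7 against Dex covers 0, whereas for *Junb* and *Egr1* the interval of Dex against vehicle covers 0.

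*Fos* (chr12:85473890-85477274) encodes the best known FOS protein, which must pair with a JUN protein to bind DNA. It had 9.62 and 6.81 CPM with Dex+Zj7, 16.8 and 11.0 CPM with Dex, and 16.2 and 18.2 CPM with vehicle. The Dex+Zj7 libraries were below all others, and the Dex libraries lay on either side of the lower vehicle library. *Fos* fell by 1.07 on the log2 scale with Dex+Zj7 against vehicle (SE 0.21, adjusted p = 0.0248 by edgeR), to 0.476 of the vehicle level. With Dex against vehicle the log2 fold change was −0.31 (SE 0.21, adjusted p = 0.377), with a 95% interval of −0.79 to 0.16. For Dex+Zj7 against Dex it was −0.76 (SE 0.22, unadjusted p = 0.00707 and adjusted p = 0.786 from edgeR). The call against vehicle was lost without Dex+Zj7 replicate 2 (adjusted p = 0.117) or without Vehicle replicate 1 (0.0661) or 2 (0.118).

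*Fosb* (chr7:19302696-19310118) encodes FOSB and its truncated, long-lived form ΔFOSB, and *Fosl2* (chr5:32136472-32157840) encodes FRA-2, a FOS protein without the strong activation domain of FOS. *Fosb* had 2.82 and 1.46 CPM with Dex+Zj7, 2.61 and 2.003 CPM with Dex, and 2.44 and 2.94 CPM with vehicle, and the groups overlapped throughout. Gene counts do not separate the isoforms of *Fosb*. *Fosl2* had 12.6 and 8.74 CPM with Dex+Zj7, 14.1 and 10.25 CPM with Dex, and 14.3 CPM in each vehicle library. All treated libraries of *Fosl2* were under both vehicle libraries, but the libraries within each treated group differed by about as much as the groups did. The log2 fold changes were −0.33 (SE 0.31) and −0.22 (SE 0.31) for *Fosb* and −0.42 (SE 0.19) and −0.23 (SE 0.19) for *Fosl2*, with Dex+Zj7 and with Dex against vehicle in that order. Adjusted p-values from edgeR ran between 0.210 and 0.699. For *Fosb* the 95% interval with Dex+Zj7 against vehicle was wide, from −1.04 to 0.37.

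*Jun* (chr4:95049036-95052222) encodes c-Jun, a JUN protein that can also pair with itself. It had 33.3 and 34.1 CPM with Dex+Zj7, 33.3 and 36.6 CPM with Dex, and 46.1 and 51.4 CPM with vehicle. All 4 treated libraries stood together, below both vehicle libraries. *Jun* fell by 0.53 on the log2 scale with Dex+Zj7 against vehicle (SE 0.08, adjusted p = 0.00829 from edgeR) and by 0.48 with Dex against vehicle (SE 0.08, adjusted p = 0.00920). In percent, its level fell by 30.9% with Dex+Zj7 and fell by 28.3% with Dex. Between Dex+Zj7 and Dex the difference was −0.05 (SE 0.08), with a 95% interval of −0.23 to 0.13. Leaving out Vehicle replicate 2 ended the call with Dex (adjusted p = 0.0858), and the call with Dex+Zj7 ended without Dex+Zj7 replicate 1 (0.0683) or 2 (0.0504) or without Vehicle replicate 2 (0.0690). An antisense gene, *Junos*, overlaps *Jun* in the GENCODE annotation and had 129 to 237 counts a library against 1686 to 2786 for *Jun*. Since no source used here states whether counting used the strand, their reads may be mixed. *Junos* itself had log2 fold changes of −0.11 with Dex+Zj7 and −0.51 with Dex against vehicle (adjusted p = 0.782 and 0.119 from edgeR).

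*Junb* (chr8:84976909-84978748) encodes a JUN protein that activates fewer targets than c-Jun and can hold c-Jun back. It had 8.84 and 10.7 CPM with Dex+Zj7, 14.5 and 14.1 CPM with Dex, and 13.5 and 15.9 CPM with vehicle. The Dex libraries fell between the vehicle libraries, and the Dex+Zj7 libraries were below all others. *Junb* fell by 0.59 on the log2 scale with Dex+Zj7 against vehicle (SE 0.13, adjusted p = 0.0303 from edgeR). With Dex against vehicle the log2 fold change was −0.04 (SE 0.12, adjusted p = 0.876), with a 95% interval of −0.32 to 0.24. That of Dex+Zj7 against Dex was −0.55 (SE 0.13, unadjusted p = 0.00218), with an adjusted p of 0.551 by the quasi-likelihood test of edgeR, 0.0247 from edgeR's exact test and 0.0338 from DESeq2. The call against vehicle was lost without any 1 of the 4 libraries compared, namely Dex+Zj7 replicate 1 (adjusted p = 0.168) or 2 (0.0506) and Vehicle replicate 1 (0.0572) or 2 (0.192).

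*Egr1* encodes a zinc finger factor that answers many stimuli, and it lies on chromosome 18. It had 27.0 and 20.0 CPM with Dex+Zj7, 48.4 and 37.5 CPM with Dex, and 37.6 and 45.2 CPM with vehicle. The Dex libraries spanned those of vehicle, and the Dex+Zj7 libraries were both lower than any other. *Egr1* fell by 0.82 on the log2 scale with Dex+Zj7 against vehicle (SE 0.16, adjusted p = 0.0249 from edgeR), and its level fell by 43.4%. With Dex against vehicle the log2 fold change was 0.05 (SE 0.16, adjusted p = 0.881), with a 95% interval of −0.32 to 0.42. For Dex+Zj7 against Dex it was −0.87 (SE 0.16), the member with the smallest p in that comparison (unadjusted p = 0.000585, adjusted p = 0.403 from edgeR, and 0.000420 from edgeR's exact test). The call against vehicle was lost without Dex+Zj7 replicate 2 (adjusted p = 0.111) or Vehicle replicate 2 (0.134).

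*Egr2* (chr10:67534469-67542188) encodes a factor best known from the developing hindbrain and from myelinating Schwann cells. It was close to the limit of these libraries, with 13 and 16 counts with Dex+Zj7, 18 and 12 counts with Dex, and 40 and 26 counts with vehicle. As levels these were 0.226 and 0.262 CPM with Dex+Zj7, 0.355 and 0.218 CPM with Dex, and 0.692 and 0.480 CPM with vehicle. All 4 treated libraries were below both vehicle libraries. The log2 fold change was −1.26 (SE 0.36, adjusted p = 0.0713 from edgeR) with Dex+Zj7 and −1.04 (SE 0.36, adjusted p = 0.0993) with Dex against vehicle. These were the largest of the members in size but missed the threshold, and edgeR's exact test called the one with Dex+Zj7 (adjusted p = 0.0301). RefSeq places the gene *Gm32255* over *Egr2*, and that gene was not among those analysed here.

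*Nr4a1* (chr15:101253902-101274795) encodes NUR77, a nuclear receptor with no known natural ligand. It had 11.6 and 10.7 CPM with Dex+Zj7, 16.3 and 11.8 CPM with Dex, and 20.8 and 21.6 CPM with vehicle. All treated libraries were below vehicle, and both Dex+Zj7 libraries were below both Dex libraries by a small margin. *Nr4a1* fell by 0.93 on the log2 scale with Dex+Zj7 against vehicle (SE 0.14, adjusted p = 0.00943 from edgeR) and by 0.60 with Dex against vehicle (SE 0.14, adjusted p = 0.0305). Dex+Zj7 against Dex gave −0.33 (SE 0.14, unadjusted p = 0.0505, adjusted p = 0.955). The call with Dex was lost without Dex replicate 2 (adjusted p = 0.0585), Vehicle replicate 1 (0.0922) or Vehicle replicate 2 (0.145), and that with Dex+Zj7 without Dex+Zj7 replicate 1 (0.0544) or 2 (0.0616).

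*Arc* (chr15:74669081-74672570) was the member that changed most firmly. It had 7.79 and 9.25 CPM with Dex+Zj7, 8.07 and 9.07 CPM with Dex, and 15.2 and 17.1 CPM with vehicle. The treated libraries interleaved and all stood near 0.5 of the vehicle level. *Arc* fell by 0.92 on the log2 scale with Dex+Zj7 against vehicle (SE 0.12, adjusted p = 0.00619 from edgeR) and by 0.91 with Dex against vehicle (SE 0.13, adjusted p = 0.00472). In percent, its level fell by 47.2% with Dex+Zj7 and fell by 46.9% with Dex. Dex+Zj7 differed from Dex by −0.01 (SE 0.13), with a 95% interval of −0.30 to 0.28. *Arc* kept its call in both comparisons with vehicle whichever library was left out (adjusted p of at most 0.0489 and 0.0400) and under each of the 8 other settings.

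*Npas4* (chr19:4984353-5003439) had 27.2 and 25.7 CPM with Dex+Zj7, 25.7 and 22.9 CPM with Dex, and 31.6 and 32.2 CPM with vehicle. All treated libraries were below vehicle, and the treated groups overlapped slightly. *Npas4* fell by 0.39 on the log2 scale with Dex against vehicle (SE 0.08, adjusted p = 0.0193 from edgeR). The log2 fold change with Dex+Zj7 against vehicle was −0.27 (SE 0.08, adjusted p = 0.0792), and that of Dex+Zj7 against Dex was 0.12 (SE 0.08, adjusted p = 0.999), with a 95% interval of −0.06 to 0.31. *Npas4* was called lower with Dex+Zj7 against vehicle by edgeR's exact test (adjusted p = 0.0349), with only the groups compared (0.0397), with the replicate block (0.0433) and without Dex replicate 1 (0.0411) or 2 (0.0407). The call with Dex was lost without Dex replicate 2 (adjusted p = 0.0510) or without Vehicle replicate 1 (0.0838) or 2 (0.124). The counts of *Npas4* may hold more than its own mRNA. Counts divided by FPKM implied a length of 13.6 to 16.6 kb, against 3.62 kb for the longest coding transcript in GENCODE and 1.99 to 6.44 kb implied for the other 9 members. The deposited table lists 3 predicted transcripts beside 1 known transcript for the gene. The RefSeq span of 19.1 kb extends upstream of the GENCODE gene, which ends at position 4990316. Another GENCODE gene, *AC124502.5*, overlaps that RefSeq span, and its part in the counts was not tested. In FPKM *Npas4* stood at 1.62 ± 0.00182 with Dex+Zj7, 1.495 ± 0.173 with Dex and 2.27 ± 0.172 with vehicle (SD, n = 2).

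Relatives of the members were followed in a list of 12 other genes of the AP-1, EGR and NR4A families and their cofactors, of which 11 were measured. With Dex+Zj7 against vehicle 2 were lower and 1 was higher, beside 3.97% and 3.40% of all genes. With Dex against vehicle 1 was lower and 2 were higher, beside 6.45% and 5.03% of all genes. The NR4A receptors were lower as a family with Dex+Zj7 against vehicle. *Nr4a2*, which encodes NURR1, had 11.2 ± 0.264 CPM with Dex+Zj7, 14.2 ± 0.877 CPM with Dex and 19.7 ± 2.19 CPM with vehicle (SD, n = 2 each), log2 fold changes of −0.82 and −0.47 against vehicle (adjusted p = 0.00513 and 0.0248 from edgeR). *Nr4a3* had 4.84 ± 1.07 CPM with Dex+Zj7, 7.17 ± 0.637 CPM with Dex and 10.0 ± 0.623 CPM with vehicle. It fell by 1.05 on the log2 scale with Dex+Zj7 against vehicle (adjusted p = 0.0110), and its log2 fold change with Dex was −0.48 (adjusted p = 0.0960). Against Dex, the log2 fold changes with Dex+Zj7 were −0.35 for *Nr4a2* and −0.57 for *Nr4a3* (unadjusted p = 0.0108 and 0.00926 from edgeR, adjusted p = 0.851 and 0.849). *Egr3* had −0.89 with Dex+Zj7 against vehicle (adjusted p = 0.0509), while *Egr4* (−0.07) and *Jund* (−0.06), a JUN gene that is less tied to stimulation, were near 0. A small MAF gene, *Maff*, whose protein lacks an activation domain, rose by 1.82 with Dex+Zj7 (5.58 ± 0.186 CPM, against 1.58 ± 0.0159 CPM with vehicle) and by 2.0 with Dex (6.32 ± 0.0940 CPM) on the log2 scale. *Batf3*, an AP-1 partner of immune cells, was called higher with Dex (1.61, adjusted p = 0.0394) at only 0.329 ± 0.0749 CPM with Dex and 0.106 ± 0.0456 CPM with vehicle, a call that ended without any 1 of the 6 libraries and with DESeq2. Without 1 library the *Nr4a2* call with Dex ended in 2 of 6 cases (without Dex replicate 1 or Vehicle replicate 2) and the *Nr4a3* call with Dex+Zj7 in 2 of 6 (without Dex+Zj7 replicate 2 or Vehicle replicate 2).

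**Figure D3:**
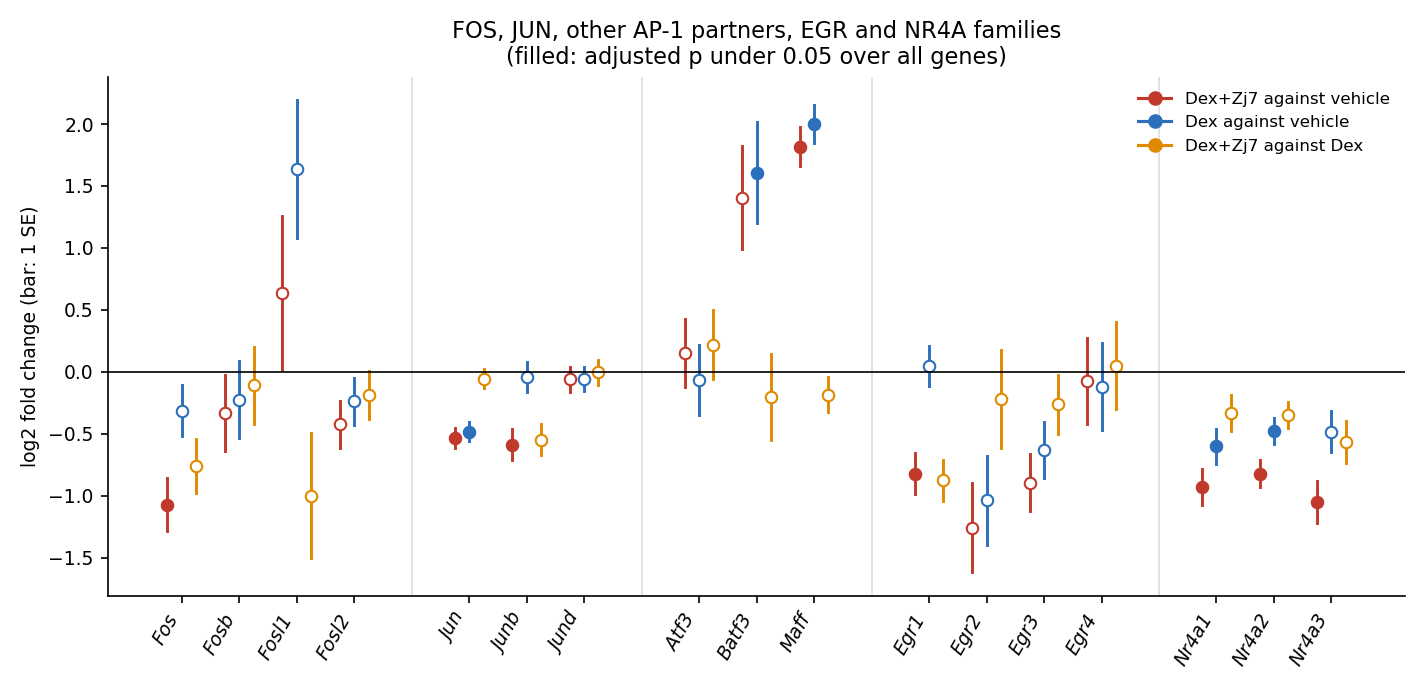
Log2 fold changes (vertical axis, with 1 SE) of the FOS, JUN, other AP-1, EGR and NR4A genes measured, for Dex+Zj7 against vehicle, Dex against vehicle and Dex+Zj7 against Dex; filled points have an adjusted p under 0.05. *Nr4a1*, *Nr4a2* and *Nr4a3* lie below 0 in each comparison, and *Maff* lies at 1.82 and 2.0 against vehicle.

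Other rapidly induced genes were called in both directions. Of 28 such genes, 1 was lower and 2 were higher with Dex+Zj7 against vehicle, beside 3.97% and 3.40% of all genes. With Dex against vehicle 1 was lower and 4 were higher, beside 6.45% and 5.03% of all genes. The gene lower in both comparisons was *Sik1*, a kinase that restrains the coactivators of CREB (−0.51 with Dex+Zj7 and −0.43 with Dex on the log2 scale). The kinase *Sgk1*, a known GR target, was higher with Dex+Zj7 (0.997) and with Dex (1.19), and so was *Rgs2*, which shortens G protein signalling (0.39 and 0.47). *Zfp36*, whose protein speeds the decay of cytokine mRNAs, and the transcription factor *Cebpb* passed the test with Dex (1.07 and 1.13) and not with Dex+Zj7 (0.66 and 0.71), and their difference between Dex+Zj7 and Dex did not pass it (adjusted p = 0.989 and 0.997). The median log2 fold change of the list was −0.01 with Dex+Zj7 and 0.01 with Dex. *Dusp1*, *Ier2*, *Btg2* and *Srf* did not pass the test in any comparison. With Dex+Zj7 and with Dex against vehicle, *Dusp1* had −0.26 and −0.30 (unadjusted p = 0.0234 and 0.0134 from edgeR). *Btg2* had −0.41 and −0.22 (unadjusted p = 0.0293 and 0.198 from edgeR), *Ier2* −0.19 and −0.23, and *Srf* −0.01 and −0.02. Of these calls, only *Sgk1* with Dex held whichever library was left out.

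Genes that respond later to neuronal activity went both ways. Of 23 measured, 2 were lower and 3 higher with Dex+Zj7 against vehicle, beside 3.97% and 3.40% of all genes. With Dex against vehicle 1 was lower and 4 higher, beside 6.45% and 5.03% of all genes. *Bdnf*, a growth factor of neurons and a target of NPAS4 and CREB, had 14.8 ± 1.34 CPM with Dex+Zj7, 20.2 ± 0.227 CPM with Dex and 21.0 ± 0.8001 CPM with vehicle (SD, n = 2 each). It fell by 0.50 on the log2 scale with Dex+Zj7 against vehicle (adjusted p = 0.0170 from edgeR), while Dex alone gave −0.06 (adjusted p = 0.719). Set against Dex, Dex+Zj7 gave −0.44 (unadjusted p = 0.000954, adjusted p = 0.484 by edgeR). Its call ended without Dex+Zj7 replicate 2 or either vehicle library (adjusted p of up to 0.117). *Nptx2*, which gathers glutamate receptors at synapses, was higher with Dex+Zj7 (0.53) and with Dex (0.75). *Peg10*, an imprinted gene derived from a retrotransposon that is best known from the placenta, was lower in both (−0.57 and −0.59), and the potassium channel gene *Kcna1* was higher in both (0.48 and 0.41). *Rasd1*, a small G protein that is induced by Dex in several cell types, was higher in both (0.94 and 0.84), and *Scg2*, a secretory granule protein, was higher with Dex (0.30). With 1 library left out, the call of *Scg2* ended in 5 of 6 cases, and it ended with the compared groups only (adjusted p = 0.0541 by edgeR). That of *Rasd1* ended in 3 of 6 cases in each comparison, that of *Kcna1* in 3 of 6 with Dex+Zj7 and 2 of 6 with Dex, and that of *Nptx2* in 3 of 6 with Dex+Zj7. *Peg10* in both comparisons and *Nptx2* with Dex kept their calls in all 6 cases. In Dex+Zj7 against Dex, 0 of these genes were called by edgeR's quasi-likelihood test. At an unadjusted p under 0.05, 6 differed, all of them lower with Dex+Zj7, beside 2.12% of all genes. DESeq2 and edgeR's exact test each called 1. Over all genes DESeq2 called 18 lower and 48 higher, and the exact test 34 and 63.

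Upstream of the members, a few genes changed in each direction. The first list held 18 transcription factors and coactivators that act on immediate early genes, to activate or to repress them. With Dex+Zj7 against vehicle, 3 were lower and 1 was higher (*Crem* −0.49, *Elk3* −0.66, *Mef2c* −0.33 and *Mrtfb* 0.32). With Dex against vehicle, 2 were lower and 2 higher (*Elk3* −0.80, *Mef2c* −0.39, *Mrtfb* 0.41 and *Crebbp* 0.23). Over all genes the shares called were 3.97% lower and 3.40% higher with Dex+Zj7, and 6.45% lower and 5.03% higher with Dex. With 1 library left out, the call of *Crebbp* ended in 5 of 6 cases, and it also ended under total counts, limma-voom and the compared groups only. Those of *Elk3*, *Mef2c* and *Mrtfb* ended in 2 to 4 of 6 cases in each comparison, and that of *Crem* in 4 of 6. *Crem* encodes factors of the CREB family, among them the repressor ICER. *Elk3* and *Mef2c* are also expressed in vessels and microglia, whose markers were lower in the same libraries, and the part of those cells in these calls was not tested. *Creb1* (−0.23 and −0.18), *Srf* (−0.01 and −0.02) and *Elk1* (0.04 and −0.08) did not pass the test. Of 22 kinases of the calcium, cAMP and MAP kinase pathways, 1 was higher in both comparisons, *Camkk1*, which activates calcium-dependent kinases (0.32 and 0.33), a call that ended in 4 of 6 cases with Dex+Zj7 and in 2 of 6 with Dex. None of the genes of these lists was called lower or higher in Dex+Zj7 against Dex.

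The libraries of a group were not equally far apart for all members. The log2 level in replicate 1 minus that in replicate 2 was above 0 for 6 of the 10 members with Dex+Zj7, for 8 with Dex and for 1 with vehicle, and its median was 0.10, 0.37 and −0.16 in the same groups. *Fos* (0.50 with Dex+Zj7 and 0.61 with Dex), *Fosb* (0.93 and 0.37), *Fosl2* (0.53 and 0.46), *Egr1* (0.43 and 0.37), *Nr4a1* (0.12 and 0.47) and *Npas4* (0.09 and 0.17) were higher in replicate 1 in both treated groups. *Arc* and *Jun* were lower in replicate 1 in all 3 groups, with differences down to −0.25. Across all genes with a mean of at least 1 CPM the median size of the same difference was 0.09 with Dex+Zj7, 0.13 with Dex and 0.08 with vehicle.

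**Figure D4:**
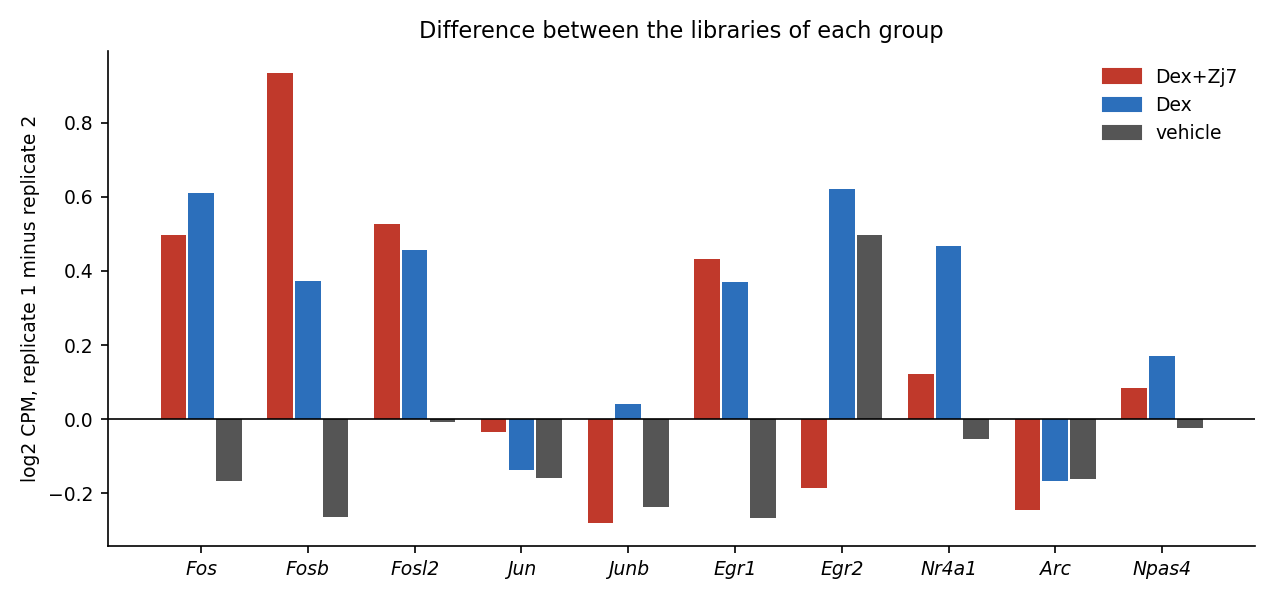
Log2 CPM of replicate 1 minus replicate 2 (vertical axis) for each immediate early gene with Dex+Zj7, Dex and vehicle. The bars of *Fos*, *Fosb*, *Fosl2*, *Egr1*, *Nr4a1* and *Npas4* are above 0 in both treated groups and below 0 with vehicle, and those of *Arc* and *Jun* are below 0 in all groups.

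Over the 6 libraries, *Nr4a1* followed the mean of the other members most closely (Pearson r = 0.986 over 6 libraries on log2 CPM, each member centred and scaled), then *Fos* (0.921). *Fosb* (0.628) and *Junb* (0.631) followed it least. These values describe 6 libraries in 3 groups and carry no test. The mean scaled level of the 10 members was −0.55 and −1.04 with Dex+Zj7, 0.19 and −0.47 with Dex, and 0.80 and 1.07 with vehicle, so the libraries of the 3 groups did not overlap in this mean. Among 13968 other genes with a mean of at least 1 CPM, the 5 most like that mean were *Elovl5* (r = 0.997), *Ctss* (0.994), *Spty2d1* (0.993), *Tspo* (0.993) and *Msmo1* (0.992), and 377 genes had r over 0.9. Since the members' mean was highest with vehicle, genes picked for likeness to it stand below vehicle by that choice. The log2 fold changes with Dex+Zj7 and with Dex were −0.36 and −0.24 for *Elovl5* and −0.69 and −0.40 for *Ctss*, a lysosomal protease of microglia. They were −0.32 and −0.20 for *Spty2d1*, −0.60 and −0.35 for *Tspo*, and −0.48 and −0.33 for *Msmo1*.

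One of the 16 sets of markers had the same calls as *Fos*, *Egr1* and *Junb*. The 5 listed genes of red blood cells were all called lower with Dex+Zj7 against vehicle, beside 3.97% of all genes. With Dex against vehicle 0 were called, beside 6.45% of all genes called lower. Their summed level was 30.3 to 30.8 CPM with Dex+Zj7, 44.4 to 75.6 CPM with Dex and 64.0 to 70.1 CPM with vehicle. In Dex+Zj7 against Dex all 5 were lower at an unadjusted p under 0.05 (2.12% of all genes), with 0 called. All 5 had counts in every library, but so did every gene kept by the authors' filter. The part of blood in the levels of *Fos*, *Egr1* and *Junb* was not tested. The markers of AgRP and POMC neurons summed to 192 to 213 CPM with Dex+Zj7, 246 to 257 CPM with Dex and 195 to 283 CPM with vehicle. This sum is not a measure of neuron content alone, since some of its genes changed with treatment. Of the 8, 1 was called higher with Dex+Zj7 against vehicle and 3 with Dex, beside 3.40% and 5.03% of all genes. Among them, *Agrp* rose by 1.35 and 1.97 on the log2 scale. *Pomc* differed widely between the vehicle libraries (79.4 ± 72.6 CPM, SD, n = 2). Markers of the suprachiasmatic nucleus, a neighbour whose immediate early genes follow light, summed to 118 to 119 CPM with Dex+Zj7, 83.4 to 97.1 CPM with Dex and 119 to 135 CPM with vehicle. The 5 measured markers of the forebrain outside the hypothalamus summed to 12.4 to 13.4 CPM with Dex+Zj7, 9.14 to 10.7 CPM with Dex and 8.86 to 10.1 CPM with vehicle. Of these 5, 0 were called in any comparison. The part of the dissection in the results was not tested. Of 5 markers of meningeal fibroblasts, all 5 were lower than vehicle in both treated groups.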

How the data were processed

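The 10 genes and all gene lists were chosen with earlier results of these data known. Poly(A) RNA was sequenced from stranded libraries on an Illumina HiSeq. The authors removed low-quality reads, adapters, contaminant DNA and PCR duplicates, used Bowtie2 2.3.4.1 and HISAT2 2.1.0 for mapping to mm10 and StringTie 2.1.3b for assembly, and left out genes with a count of 0 in any library, so genes silent in a group are not seen. The authors deposited whole-number read counts, not normalized (smallest 1), and FPKM values, which depend on the assembled transcript lengths and were used for levels between genes and for implied lengths. The deposited fold change, mean log CPM and p-value columns of the authors' own comparisons (12 columns) and group means were not used, nor were 12 further columns of per-sample values (TPM and further normalized values).

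Counts of all 6 libraries entered 1 fit in R 4.3.3 with edgeR 4.0.16 (TMM, glmQLFit and glmQLFTest, no covariate, no further filter), with Benjamini-Hochberg adjustment over 21461 genes and calls under 0.05. The standard error is the absolute log2 fold change over the root of the F statistic, and intervals use the test's degrees of freedom. The fit was tested on simulated data. Log2 levels of libraries use a prior count of 2. Alternatives were edgeR's RLE factors, total counts, DESeq2 1.42.0, edgeR's exact test, limma-voom (limma 3.58.1), a mean of at least 1 CPM, the compared groups only, a replicate block, and each library left out. Named were all 10 members, up to 4 called genes of smallest p per list and comparison, and the 5 genes most like the members; *Dusp1*, *Ier2*, *Btg2*, *Srf*, *Egr3*, *Egr4*, *Jund*, *Creb1*, *Elk1*, *Fkbp5*, *Rasd1*, *Junos* and *Ptger1* were added after their values were seen. Promoter letters come from RefSeq on GRCm38.p6, the assembly behind mm10, and gene positions from its gene table, matched by gene ID for 21404 genes. The libraries of a group differed by more than sampling noise (chi-square per degree of freedom of 7.14 to 15.6).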

Additional observations from a re-analysis of the deposited data

How the results depend on the processing

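At 12 to 40 counts a library, counting error limits *Egr2*, and for the other members the spread between 2 libraries is the limit. A group left with 1 library was assumed to vary like the others. For the 30 member results (10 genes in 3 comparisons), all 237 values under the settings other than leaving out a library kept their direction. The mean of at least 1 CPM removed *Egr2*, and DESeq2 and edgeR's exact test called more members between Dex+Zj7 and Dex (1 and 2 lower, against 0). In that comparison DESeq2 called 18 genes lower and 48 higher over all genes, and the exact test 34 and 63, while the compared groups only and the replicate block called 0 higher, against 1. The exact test called 1660 genes higher with Dex against vehicle (1080 in the main analysis) and 1642 lower and 1381 higher with Dex+Zj7 against vehicle (853 and 730), and the compared groups only called 1132 higher with Dex+Zj7 against vehicle.

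The replicate number was not shown to pair the libraries, since the correlation of deviations between groups was 0.322, 0.0230 and −0.0115 over 15531 genes. With the replicate block, 4 members were called lower with Dex, 7 with Dex+Zj7 (*Npas4* was added, adjusted p = 0.0433 by edgeR) and 0 between them. Over all genes the block called 1923 lower and 1743 higher with Dex against vehicle, against 1384 and 1080 in the main fit. With Dex+Zj7 against vehicle it called 1310 lower and 1302 higher, against 853 and 730.

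With 1 library left out, members called lower numbered 1 to 4 with Dex and 1 to 7 with Dex+Zj7, and 0 between them throughout. Over all genes, calls lower and higher ran from 355 to 1260 and 183 to 1137 with Dex against vehicle, from 156 to 1195 and 118 to 1137 with Dex+Zj7 against vehicle, and from 0 to 2 and 0 to 1 between Dex+Zj7 and Dex. The median of the members ran from −0.48 to −0.18 with Dex, from −0.84 to −0.58 with Dex+Zj7, and from −0.47 to −0.08301 between them. Directions turned for 12 of 180 values, all of differences that were not called. Over the 6 libraries left out, the log2 fold change with Dex against vehicle ran from −0.1551 to 0.08502 for *Junb* and from −0.1447 to 0.2252 for *Egr1*, and with Dex+Zj7 against vehicle it ran from −0.8786 to 0.06217 for *Fosb*. Between Dex+Zj7 and Dex it ran from −0.6558 to 0.2843 for *Fosb*, from −0.475 to 0.05728 for *Fosl2*, from −0.1193 to 0.01767 for *Jun*, from −0.5345 to 0.1615 for *Egr2* and from −0.1466 to 0.1092 for *Arc*. Of 44 called results of listed genes, 0 turned direction, and 87 of 264 values with a library left out and 6 of 351 under other settings lost the call. The cause of these changes was not tested.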
